A study of Mus musculus with 17 samples.

Results

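Chromatin accessibility was followed from naive B cells (nB) to antigen-specific germinal center B cells (GCB) in mice whose B cells lacked a working Dnmt3a and Dnmt3b, the enzymes that place new DNA methylation (KO). The comparison used 6 of the 16 ATAC-seq libraries in the table, 2 nB KO and 4 GCB KO, chosen by cell type and genotype alone, and it covered all 66177 accessible regions. The study also sampled Dnmt3-sufficient littermates (C) and bone marrow plasma cells (BMPC) of both genotypes. Of 17 labelled libraries, 1 BMPC KO library has no column in the table.

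KO mice carried Dnmt3afl/fl and Dnmt3bfl/fl together with a Cre allele, and C mice carried the same floxed alleles without Cre. The strain label of both was B6;129S4-Dnmt3atm3.1Enl Dnmt3btm5.1Enl/Mmnc, and the mice were 8 to 12 weeks old. Cre acts in the B lineage, so T cells and stroma of KO mice keep both enzymes. GCB were sorted as B220+ Fas+ GL7+ cells that bound phycoerythrin (PE), from the inguinal and periaortic lymph nodes 30 days after immunization with PE in complete Freund's adjuvant. The nB were B220+ Fas- GL7- lymph node cells, and the study describes its naive cells as those of unimmunized mice, so immunization and cell type cannot be told apart. Each nB KO library came from 1 male mouse, and each GCB KO library from a pool of 2 mice, female in pools F1, F2 and F3 and male in pool M1. The C groups held 3 nB libraries, all male, and 2 GCB pools, 1 of each sex. Each library was made from 3000 to 5000 cells.

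In a germinal center, B cells that have met antigen divide, mutate their antibody genes and compete for help from follicular helper T cells, while the repressor Bcl6 holds back plasma cell formation. ATAC-seq marks open chromatin because a transposase inserts sequencing adapters where DNA is not wrapped in nucleosomes, and many open regions away from gene starts are enhancers bound by transcription factors. Oct-2 and its coactivator act through an octamer element in B cells, PU.1 is a factor of the ETS family whose sites contain GGAAGT, and E2A binds the E-box CAGCTG.

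Stretches of 7 regions are shown here because the largest changes and the sequence differences described later can be read in them. They were read from the forward strand of mm9, in lower case, with the motif core in capitals. The first 4 windows come from regions that were more accessible in GCB KO and hold an octamer core (ATGCAAAT, or ATTTGCAT when read from the other strand). The first lies at chr16:24134903-24135042 in intergenic sequence, with the symbol of the germinal center regulator Bcl6. The others lie at chr11:109267270-109267409 with the symbol Gna13, whose product couples S1pr2 to confinement of cells, at chr16:5496257-5496396 with the symbol Eef2kmt, and at chr13:34628733-34628872 with the symbol Pxdc1, all intergenic.
Bcl6: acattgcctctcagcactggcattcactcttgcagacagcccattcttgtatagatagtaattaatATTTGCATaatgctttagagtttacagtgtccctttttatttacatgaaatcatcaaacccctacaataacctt
Gna13: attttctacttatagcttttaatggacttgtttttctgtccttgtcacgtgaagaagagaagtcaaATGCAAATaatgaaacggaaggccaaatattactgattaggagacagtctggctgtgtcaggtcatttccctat
Eef2kmt: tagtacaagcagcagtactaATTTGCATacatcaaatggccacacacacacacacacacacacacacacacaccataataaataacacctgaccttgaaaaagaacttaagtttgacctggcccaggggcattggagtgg
Pxdc1: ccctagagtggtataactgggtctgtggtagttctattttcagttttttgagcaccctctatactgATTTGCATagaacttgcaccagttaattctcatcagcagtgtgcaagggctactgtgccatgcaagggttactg

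A PU.1 core (GGAAGT, or ACTTCC on the other strand) is marked in 2 regions that were less accessible in GCB KO, at chr10:124807194-124807333 in intergenic sequence near Slc16a7 and at chr4:149032033-149032172 within Pik3cd. The last window, at chr4:154823314-154823553 near Cfap74, belongs to the region with the largest increase and shows part of a tandem repeat in which the E-box recurs.
Slc16a7: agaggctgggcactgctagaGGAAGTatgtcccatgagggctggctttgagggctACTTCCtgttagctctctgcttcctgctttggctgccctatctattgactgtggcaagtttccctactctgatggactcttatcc
Pik3cd: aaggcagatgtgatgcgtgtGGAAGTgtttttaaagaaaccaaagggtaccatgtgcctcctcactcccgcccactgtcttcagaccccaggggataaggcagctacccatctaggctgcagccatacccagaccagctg
Cfap74: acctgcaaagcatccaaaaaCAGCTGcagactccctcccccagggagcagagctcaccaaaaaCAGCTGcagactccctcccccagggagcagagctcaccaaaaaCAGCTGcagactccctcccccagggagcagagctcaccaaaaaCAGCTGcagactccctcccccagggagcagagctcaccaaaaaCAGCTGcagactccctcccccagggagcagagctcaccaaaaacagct

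Accessibility is given in RPPM, the reads in a region per 1e+06 reads in all regions of that library. The nB KO libraries, always given in this order, held 6079018 and 5081180 reads in regions, and the GCB KO pools held 907959, 1571145, 2280954 and 1430371 reads in F1, F2, F3 and M1. A count of 3 reads, below which a value says little, equals 0.494 and 0.590 RPPM in the nB libraries and between 1.32 and 3.30 RPPM in the GCB pools, so low GCB values rest on few reads. Fold changes are on the log2(RPPM + 1) scale unless given as a ratio, and a region is called where limma's adjusted p was at most 0.01 and the absolute log2 fold change at least 1.

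The 2 groups differed in more than cell type, and those values are given before the results. Mitochondrial DNA took 3.10% and 4.59% of the reads in regions of nB KO and 9.43%, 9.75%, 7.43% and 10.1% in GCB KO, while promoter regions took 53.7% and 52.7% against 43.6%, 44.3%, 46.5% and 44.0%. The part of these shares in the results was not tested. With all libraries thinned to the depth of the shallowest, 6468 regions rose and 2762 fell, and gains made up 70.1% of calls. Both nB libraries were male and 3 of 4 GCB pools were female. The promoters of Eif2s3y, Ddx3y and Uty, which lie on the Y chromosome, were at 0 RPPM in F1, F2 and F3 and at 30.1, 30.8 and 32.2 RPPM in M1, so the libraries match their labelled sex. Changes on the sex chromosomes are therefore described with M1 alone beside them.

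From nB to GCB without Dnmt3a and Dnmt3b, 12205 regions became more accessible (18.4% of 66177) and 5188 became less accessible (7.84%). Gains were therefore the more frequent change, making up 70.2% of the 17393 called regions. Fewer regions were called without the deeper nB library (8135 gains and 3350 losses) and with a pseudocount of 5 RPPM (4643 and 2366). The median gained region went from 1.15 RPPM in nB to 7.41 RPPM in GCB, with a median log2 fold change of 1.64 (quartiles 1.32 and 2.17). Lost regions fell from a median of 17.2 to 5.41 RPPM, with a median log2 fold change of -1.38 (quartiles -1.70 and -1.17). Of the changes of at least 3 on the log2 scale, 1039 were gains and 60 were losses. On the log2(RPPM + 1) scale a loss cannot pass the nB value, whereas a gain has no such limit. The part of this in the 2 counts was not tested.

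In 3275 gained regions (26.8%, against 9.72% of all regions) neither nB library had more than 3 reads. In 408 lost regions (7.86%, near the 6.55% of all regions) no GCB pool had more than 3 reads. Both shares describe the regions as chosen by their calls. In BMPC KO, the gained regions had a median of 4.34 RPPM and the lost regions 4.61 RPPM, between the values of the other cell types for the gains and below both for the losses. The excess of gains depended on how libraries were scaled. The median log2 fold change of all regions was 0.12, and it moved to 0.04 with TMM factors, -0.03 with centering within bins of GC content and -0.07 with quantile normalization. Gains made up 63.8%, 56.4% and 50.7% of calls in these settings, the last with 7679 gains and 7477 losses.

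Gains lay away from gene starts. Among 14332 promoter regions, 1489 gained (10.4%) and 1035 lost accessibility (7.22%), whereas gains reached 21.8% in exons, 20.5% in introns and 20.6% in intergenic regions. The share of gains rose with distance from the nearest protein-coding start, from 8.32% where the start was inside the region to 16.4% within 10 kb, 21.2% between 10 and 100 kb and 22.5% beyond 100 kb. Losses were most frequent beyond 100 kb (10.9%) and lay between 6.80% and 8.01% nearer to starts.

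Gains and losses were called at different levels of accessibility. In 5 equal classes of regions ordered by mean accessibility, gains made up 19.7%, 27.0%, 23.9%, 17.3% and 4.34% from the lowest to the highest class, while losses made up 1.07%, 4.23%, 8.99%, 15.0% and 9.92%. Gains were therefore called mostly at weak regions and losses at strong ones.

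**Figure D1:**
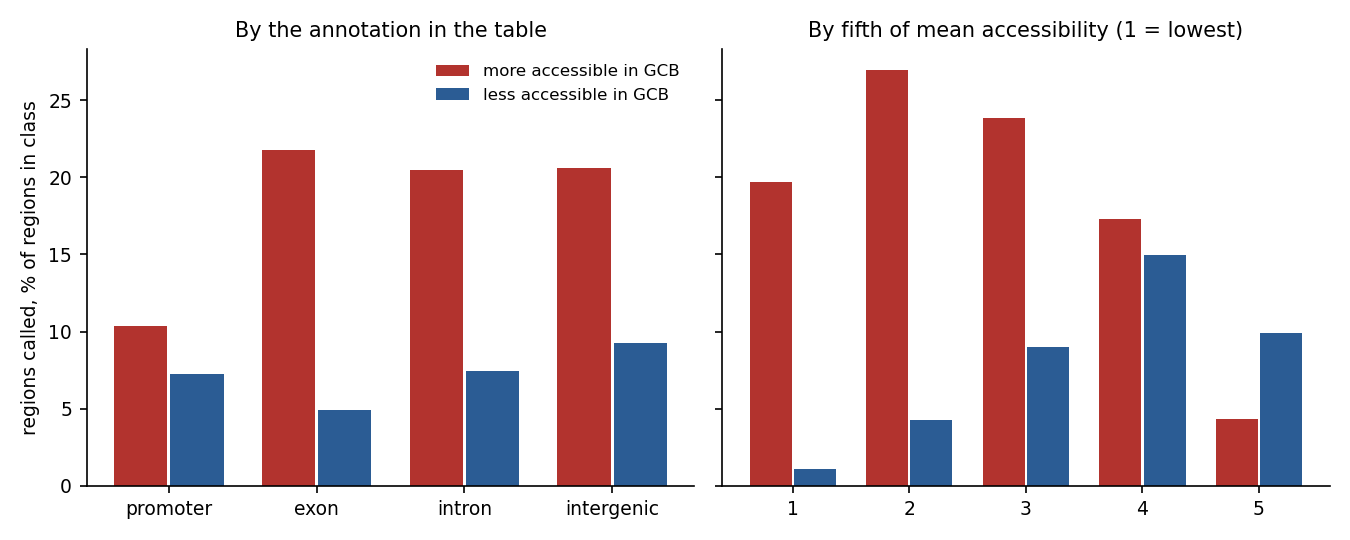
Share of regions called more accessible (red) or less accessible (blue) in GCB KO than in nB KO, in percent of the regions of each class, by annotation (left) and by class of mean RPPM from lowest to highest (right). Promoters gained least often (10.4%), and losses passed gains only in the highest class (9.92% against 4.34%).

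Genes that define germinal center B cells gained accessibility at most of their called regions. Of 17 listed germinal center markers 16 had regions, and 45 of their 133 regions rose (33.8%, against 18.4% of all regions) while 13 fell (9.77%, against 7.84%). Gains were spread over 13 of the 16 genes. Basp1, which encodes a membrane-associated signaling protein, gained at 11 of 12 regions, Fas at 4 of 8, and Gcsam, a germinal center signaling gene, at 4 of 4. Cd83, an activation marker of light zone cells, went the other way and lost 7 of 18 regions. Mybl1 lost 1 of 3 and Ccdc88b 1 of 6, with no gain at any of these genes. The median log2 fold change of the list was 0.18, against 0.12 over all regions. With quantile normalization 37 of the list's regions rose and 14 fell.

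At Bcl6, the promoter and a distal region moved in opposite directions. The promoter (chr16:23988595-23989233) was at 58.9 and 54.5 RPPM in nB and at 14.3, 21.6, 14.0 and 14.0 RPPM in GCB, a log2 fold change of -1.79 (SE 0.17, limma adjusted p = 1.98e-09). An intergenic region 145608 bp from the Bcl6 start (chr16:24134546-24135399), whose octamer core is printed above, was at 0.987 and 0.394 RPPM in nB and at 34.1, 39.5, 38.1 and 47.5 RPPM in GCB. The groups did not overlap at either region, which for the distal region was part of how it was chosen. The distal region rose 57.7-fold (log2 fold change 4.61, SE 0.29, limma adjusted p = 9.17e-13) and was nearly absent in BMPC KO, at 0.0607 RPPM. Over all 16 regions with the Bcl6 symbol, 4 rose, 2 fell and 10 were not called.

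Over the 20 homing and positioning genes, 19 with regions, 36 of 216 regions rose (16.7%, against 18.4% of all regions) and 46 fell (21.3%, against 7.84%). S1pr2, the receptor that confines cells to the germinal center, gained at 3 of 4 regions. The region 3093 bp from its start (chr9:20784330-20784768) held 0.494 and 0.394 RPPM in nB and 23.1, 21.0, 27.6 and 27.3 RPPM in GCB, a 55.8-fold rise (log2 fold change 4.15, SE 0.26). The S1pr2 promoter, at 14.6 and 13 RPPM in nB and 27.5, 25.5, 28.5 and 14.0 RPPM in GCB, was not called. Gna13 gained at 3 of 4 regions, the strongest with a log2 fold change of 4.04 (SE 0.29), and Rgs1, a regulator of chemokine receptor signaling, gained at 9 of 14. Arhgef1, which acts downstream of Gna13, lost 2 of 4 regions and gained none.

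S1pr1, the receptor that draws lymphocytes out of lymph nodes, lost 6 of 32 regions and gained 2. Its named region (chr3:115372089-115372473) fell from 12.2 and 16.7 RPPM to 0, 0.636, 1.75 and 2.1 RPPM, all of the GCB values at or under 3 reads except that of F3 (log2 fold change -2.98, SE 0.40). No GCB pool reached the nB values, which was part of how the region was chosen. Ccr7, a receptor for the T cell zone, lost 6 of 12 regions, and Cxcr5, the receptor for the follicle, lost 8 of 11 and gained 1.

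**Figure D2:**
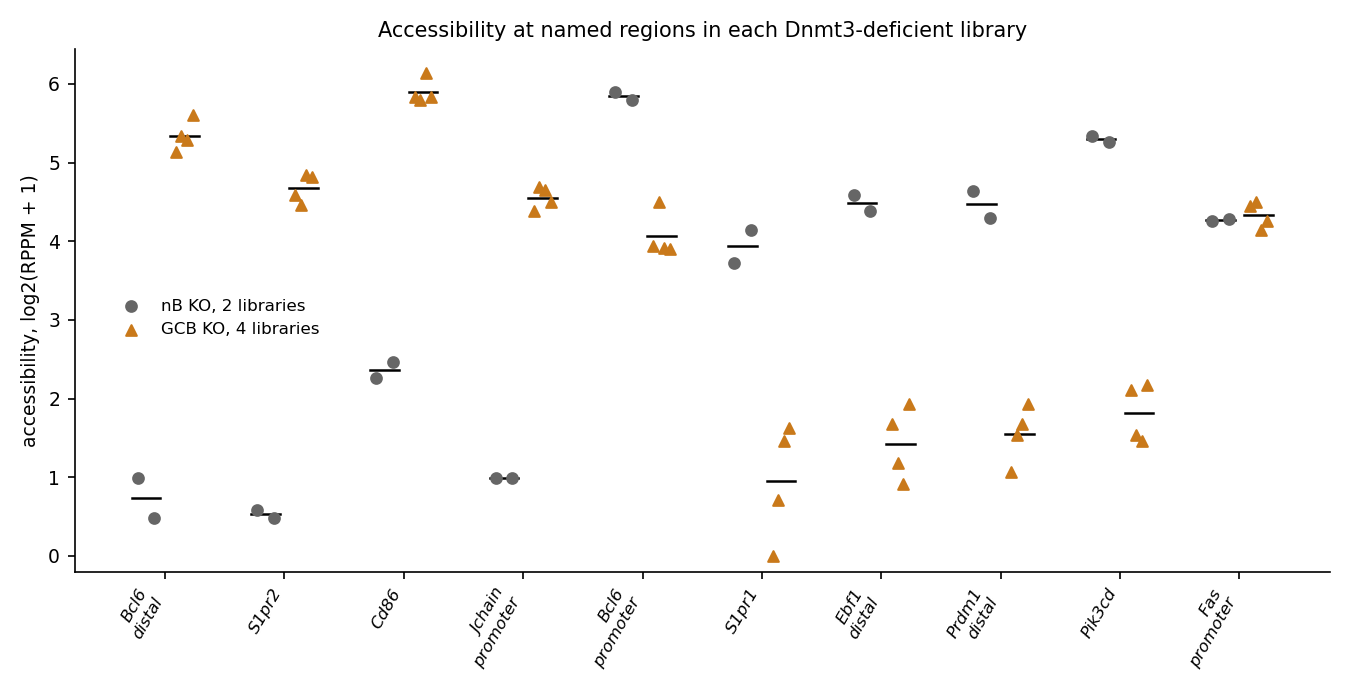
Accessibility, log2(RPPM + 1), of 10 named regions in the 2 nB KO libraries (grey circles) and the 4 GCB KO pools (orange triangles), with bars at group means. The groups do not overlap in the first 9 regions, which changed by between -3.48 and 4.61 on the log2 scale, while the Fas promoter changed by 0.07 and was not called. Regions named from the gene lists were chosen by a called change without overlap of groups.

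At naive follicular B cell genes, losses outnumbered gains. Of 329 regions at 16 of 17 listed genes, 86 fell (26.1%, against 7.84% of all regions) and 17 rose (5.17%, against 18.4%), with a median log2 fold change of -0.58 against 0.12 over all regions. The losses touched 15 of the 16 genes. Foxp1, a factor of quiescent follicular B cells, lost 28 of 102 regions, Bcl2, the survival factor, 10 of 33, Klf3 9 of 15, and Cd55, a complement regulator, 4 of 8. The list was lower under every scaling, with 103, 120 and 130 losses under TMM, quantile and GC-bin scaling. Among the 17 gains, Zbtb16, a zinc finger factor, gained at 2 of 3 regions and lost none. The largest were at intergenic regions of Satb1, a chromatin organizer, and Bank1, a signaling scaffold. The first, 78910 bp from the Satb1 start, rose from 1.81 and 1.57 RPPM to between 21.7 and 27.4 RPPM (log2 fold change 3.24). The other, 57103 bp from the Bank1 start, rose from 3.13 and 1.97 RPPM to between 28.0 and 30.1 RPPM (log2 fold change 3.10).

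Genes of surface markers that tell the cell types apart were not uniformly remodeled. The promoters of Cd38, Fas and Ptprc (which encodes B220) were not called, with log2 fold changes of -0.27, 0.07 and -0.03 (limma adjusted p = 0.253, 0.735 and 0.859). Cd38, whose protein is high on naive cells, lost 2 of 9 regions, both in introns, with log2 fold changes of -2.01 and -1.97. Within Fas, an exonic region (chr19:34381062-34381810) rose from 0.987 and 0.787 RPPM to 12.1, 12.7, 20.2 and 21.0 RPPM (log2 fold change 3.17, SE 0.29). Ptprc gained at 2 of 15 regions, both intronic, where 18.4% of all regions gained and 7.84% lost accessibility.

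Over 14 plasma cell markers, 51 of 170 regions rose (30.0%, against 18.4% of all regions) and 16 fell (9.41%, against 7.84%). Zbtb20, a zinc finger factor of plasma cells, supplied 25 of these gains, and without it 26 of 127 regions rose (20.5%), near the share of all regions. It gained at 25 of 43 regions and lost 1, with a run of 18 consecutive regions over 103 kb (log2 fold changes from 1.25 to 3.98). Its strongest region (chr16:43463896-43464674) was at 0.165 and 0.197 RPPM in nB, 1 read in each library, and at 18.7, 20.4, 16.2 and 15.4 RPPM in GCB. Ell2, an elongation factor used in antibody secretion, gained at 6 of 11 regions and Tnfrsf17, which encodes the survival receptor BCMA, at 4 of 5.

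The promoter of Jchain, which encodes the joining chain of IgM and IgA, was at 0.987 and 0.984 RPPM in nB and at 19.8, 24.8, 24.1 and 21.7 RPPM in GCB (22.9-fold, log2 fold change 3.57, SE 0.21). At 24.1 RPPM, its mean in BMPC KO was near that in GCB KO (22.6 RPPM). Prdm1, which encodes the plasma cell regulator Blimp-1, lost 11 of 33 regions and gained 4. A distal region 107561 bp from its start (chr10:44355868-44356294) fell from 24 and 18.7 RPPM to 1.1, 1.91, 2.19 and 2.80 RPPM (log2 fold change -2.92, SE 0.32) and was at 0.892 RPPM in BMPC KO. The 2 promoter regions of Prdm1 were not called, both for a change under the limit of 1. The one 630 bp from the start went from 53.6 and 55.9 RPPM to between 23.1 and 35.5 RPPM (log2 fold change -0.84, limma adjusted p = 2.43e-05). The other, 69220 bp from that start, changed by -0.53 (limma adjusted p = 0.0028).

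**Figure D3:**
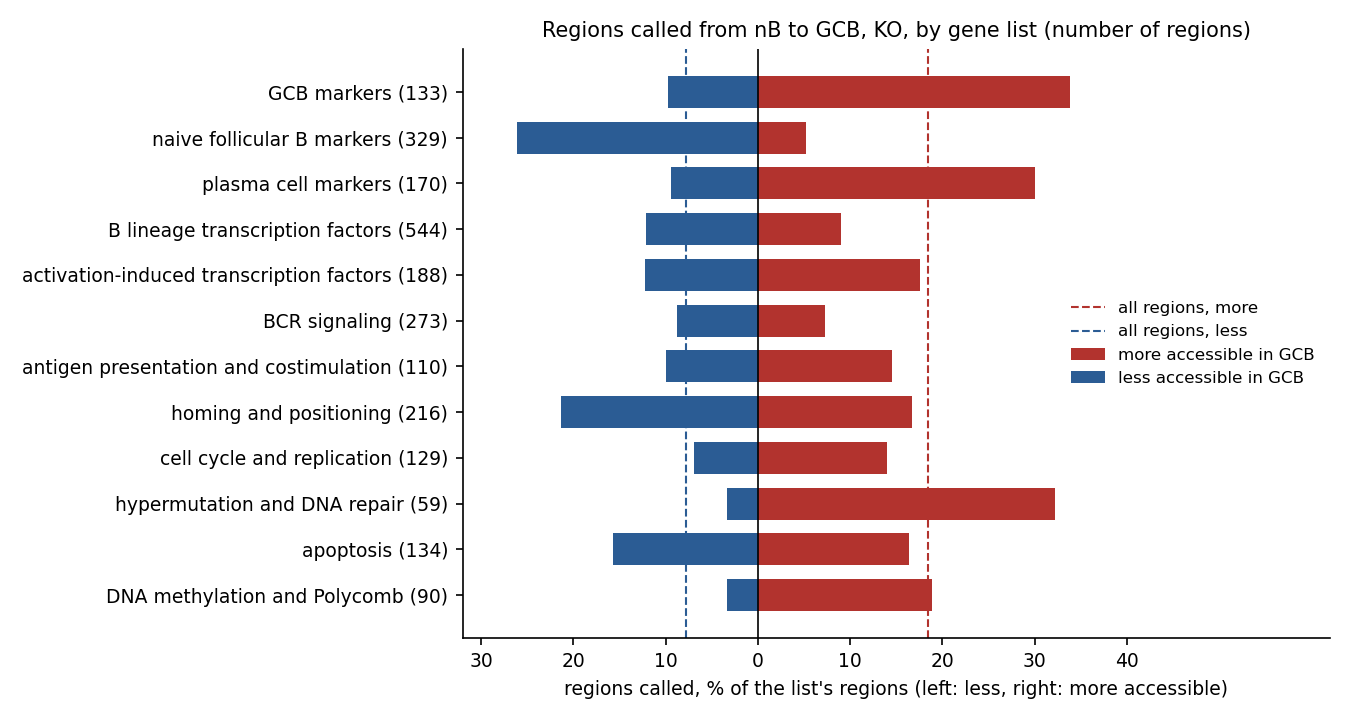
Share of the regions of 12 gene lists called more accessible (red, right) or less accessible (blue, left) in GCB KO, with the shares among all 66177 regions as dashed lines (18.4% and 7.84%). Gains were farthest above the dashed line for germinal center markers (33.8%), plasma cell markers (30.0%, but 20.5% without Zbtb20) and hypermutation and repair genes (32.2%). They were near it for DNA methylation and Polycomb genes (18.9%), and losses reached 26.1% for naive follicular markers.

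B lineage transcription factor loci were divided. Of 544 regions at 24 genes, 49 rose (9.01%, below the 18.4% of all regions) and 66 fell (12.1%, against 7.84%). Losses outnumbered gains by more under TMM (43 gains and 80 losses), quantile (28 and 92) and GC-bin scaling (36 and 97). Ebf1, a factor that specifies the B lineage, lost 13 of 51 regions and gained 6, Bach2, a repressor of plasma cell genes, lost 14 of 54 and gained 2, Pax5, which maintains B cell identity, lost 5 of 21 and gained 1, and Mef2c lost 11 of 67 and gained 3. The stronger of the Bach2 promoter regions fell from 120 and 114 RPPM to between 44.7 and 56.0 RPPM (log2 fold change -1.22) and the Ebf1 promoter from 66.0 and 68.1 to between 23.1 and 35.6 RPPM (-1.32).

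Tcf4, which encodes the E protein E2-2, moved against this pattern, gaining at 12 of 42 regions and losing 1. Its strongest region, in an intron, rose from 1.48 and 1.38 RPPM to 17.6, 34.4, 30.3 and 35.0 RPPM (log2 fold change 3.59, SE 0.23). That all 4 pools lay above both nB libraries was part of how it was chosen. A region 3954 bp from Irf8, a factor expressed in germinal center cells, rose from 0.987 and 0.984 RPPM to 14.3, 7.64, 18.0 and 17.5 RPPM (log2 fold change 2.89, SE 0.31). A distal Ebf1 region (chr11:44880058-44880566) showed the largest loss at a factor of this list, from 23.0 and 19.9 RPPM to 2.2, 1.27, 0.877 and 2.80 RPPM (log2 fold change -3.06, SE 0.33).

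Among factors induced by activation, 33 of 188 regions gained (17.6%, near the 18.4% of all regions) and 23 lost (12.2%, against 7.84%). Gains and losses were nearly even under TMM (28 and 29), quantile (23 and 24) and GC-bin scaling (25 and 26). Nfatc2 gained at 7 of 16 regions and Nfatc1 at 7 of 21, with 1 loss at Nfatc1, both factors of calcium signaling, and a region near Batf, an AP-1 factor needed for class switching, rose from 0.165 and 0.394 RPPM to between 5.51 and 10.1 RPPM. Immediate early genes were mixed. Nr4a1 and Egr3 lost 4 of 8 and 3 of 3 regions with no gain, Egr2 and Fosb gained at 3 of 5 and 2 of 9 with no loss, and Fos gained at 2 and lost 2 of 16. A region 3489 bp from Fos (chr12:86818329-86820729) rose from 5.76 and 4.33 RPPM to 29.7, 52.8, 41.2 and 76.9 RPPM (log2 fold change 3.01, SE 0.23). The spread among the pools was wide, and the lack of overlap with nB was part of how the region was chosen.

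At genes of B cell receptor signaling, 20 of 273 regions gained accessibility (7.33%, against 18.4% of all regions) and 24 lost it (8.79%, against 7.84%). Under TMM 17 rose and 30 fell, with 11 and 29 under quantile and 12 and 38 under GC-bin scaling. The largest change was a loss at an exonic region of Pik3cd (chr4:149031878-149032744), the B cell PI3-kinase subunit, whose PU.1 core is printed above. It was at 39.5 and 37.4 RPPM in nB and at 3.30, 1.91, 1.75 and 3.50 RPPM in GCB, 14.7-fold lower (log2 fold change -3.48, SE 0.22), and at 26.6 RPPM in BMPC KO. An intronic region of Inpp5d, which encodes the phosphatase SHIP-1, rose from 1.15 and 0.197 RPPM to between 11.4 and 14.0 RPPM (log2 fold change 3.08).

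Among costimulatory ligands, Cd86 and Cd80, the ligands of CD28 on T cells, gained at 6 of 15 and 4 of 7 regions and lost none, whereas Icosl, the ligand of ICOS, lost 1 of 8 and gained none. An intronic Cd86 region (chr16:36642380-36643199) rose from 3.78 and 4.53 RPPM to 56.2, 54.7, 69.3 and 55.9 RPPM, 14.2-fold higher (log2 fold change 3.54, SE 0.21). Ciita, the regulator of class II antigen presentation, lost 2 of 11 regions. In the whole antigen presentation and costimulation list, 16 of 110 regions rose (14.5%, against 18.4% of all regions) and 11 fell (10.0%, against 7.84%), with a median log2 fold change of -0.49. The balance depended on scaling, with 16 gains and 15 losses under TMM, 11 and 20 under quantile and 13 and 25 under GC-bin scaling. The class II genes H2-Aa, H2-Ab1, H2-Eb1 and H2-Oa carry no region under their own symbols in the table.

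Hypermutation and DNA repair genes gained at 19 of 59 regions (32.2%, against 18.4% of all regions) and lost at 2 (3.39%, against 7.84%). Rev1, a translesion polymerase, gained at 4 of 7 regions and Lig4, the ligase of end joining, at 3 of 4, while both losses were at Parp1. A promoter region of Polh, the error-prone polymerase eta, rose from 0.658 and 0.787 RPPM to 9.91, 7.0, 11.4 and 7.69 RPPM (12.5-fold, log2 fold change 2.52, SE 0.30). An intronic Brca1 region was at 1 read in each nB library and between 3.95 and 9.91 RPPM in GCB (log2 fold change 2.67, SE 0.32).

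In the cell cycle list, both shares were near those of all regions (18.4% and 7.84%). Of 129 regions at 28 of 31 genes, 18 rose (14.0%) and 9 fell (6.98%), and 8 of the gains were at Cdk6, a G1 kinase with 30 regions. The balance depended on scaling, with 14 gains and 14 losses under TMM, 13 and 15 under quantile and 9 and 15 under GC-bin scaling. Mki67, the proliferation marker, and Bub1, a spindle checkpoint kinase, gained at 1 region each, and the single regions of Top2a, a topoisomerase of dividing cells, and Birc5, which encodes survivin, fell. None of the regions of Mcm2 to Mcm7, Cdk1, Ccna2, Ccnb1, Ccnb2 or Plk1 was called. Apoptosis genes were mixed, with 22 of 134 regions gained (16.4%, against 18.4% of all regions) and 21 lost (15.7%, against 7.84%), and losses were the more frequent under TMM (20 and 24), quantile (12 and 23) and GC-bin scaling (16 and 28). Bcl2 supplied 10 of the losses and 1 gain, whereas Bcl2l1, which encodes the survival factor Bcl-xL, gained at 5 of 8 regions and lost 1, and Bcl2l11, which encodes the death factor Bim, gained at 3 of 7. One intronic Bcl2l11 region rose from 13.5 and 14.4 RPPM to 122, 95.5, 102 and 106 RPPM (log2 fold change 2.84, SE 0.17).

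The deleted genes and other genes of DNA methylation were examined next. The promoter regions of Dnmt3a and Dnmt3b were open in all 6 libraries, at 23.2 and 23.2 RPPM in nB and between 10.5 and 19.8 RPPM in GCB for Dnmt3a, and at 34.5 and 38.0 RPPM against 19.6 to 35.2 RPPM for Dnmt3b. Neither was called (log2 fold changes -0.55 and -0.51). With the female GCB pools left out, the Dnmt3a promoter changed by -1.08. In that fit M1, the lowest of the 4 pools, was the only GCB KO library and was assumed to vary like the other groups. An exonic and an intronic region of Dnmt3a fell, with log2 fold changes of -1.37 and -1.44. The deletion removes exons of the catalytic domain, and accessibility near the genes does not test whether those exons were removed. An intronic Dnmt3b region was at 0.165 and 0.394 RPPM in nB and at 8.81, 4.46, 2.63 and 2.80 RPPM in GCB (log2 fold change 2.03, SE 0.37), a change that fell to 0.83 and was not called with a pseudocount of 5 RPPM. Tet2, which oxidizes methylated cytosine, gained at 4 of 16 regions, Mbd2, which binds methylated DNA, at 4 of 9, and Ezh2, the Polycomb methyltransferase, at 2 of 5. Over the list of 17 DNA methylation and Polycomb genes, 17 of 90 regions rose (18.9%, near the 18.4% of all regions) and 3 fell (3.33%, against 7.84%). For this list, gains and losses numbered 16 and 7 under TMM, 8 and 7 under quantile and 11 and 4 under GC-bin scaling.

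The largest gains genome-wide lay outside the listed genes, at sites that were closed in nB KO. A region near Cfap74 (chr4:154823215-154823909) was at 0 and 0.394 RPPM in nB and at 101, 94.2, 89.4 and 79.7 RPPM in GCB, a log2 fold change of 6.28 (SE 0.30, limma adjusted p = 3.83e-15). It holds 13 EBF1 cores and 13 E2A cores, the latter spaced by a median of 43 bases (43 to 46), and only 9 regions of the table (0.0137%) hold 13 or more E2A cores. Reads from tandem copies can be assigned to the wrong copy. A neighboring region without a symbol rose from 0.494 and 0.590 RPPM to between 60.6 and 68.1 RPPM.

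A region 42209 bp from the start of Cybrd1, which encodes an iron reductase, rose from 0.329 and 0.197 RPPM to 77.1, 67.5, 90.8 and 96.5 RPPM (log2 fold change 6.04, SE 0.26). Intronic regions of Rgs6, Coro1c and Kcnt2 and intergenic regions with the symbols Eef2kmt and Pxdc1 changed by between 5.53 and 5.63. The last 2 lay 240007 and 115211 bp from the nearest protein-coding start. In all 8 of these regions every GCB pool was at 48.2 RPPM or more while no nB library reached 1 RPPM. In BMPC KO the 8 were between 0.0607 and 4.26 RPPM.

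The largest autosomal losses were smaller. An intronic region of Rnf144a, a ubiquitin ligase, fell from 50.3 and 42.7 RPPM to 1.1, 3.18, 2.19 and 2.1 RPPM (21.7-fold, log2 fold change -3.96, SE 0.32). A pair of intergenic regions, 40961 and 59573 bp from the start of Slc16a7, a monocarboxylate transporter, fell from between 61.2 and 68.9 RPPM to between 2.2 and 7.69 RPPM (log2 fold changes -3.88 and -3.70). An intronic region of Celf4 fell from 59.5 and 57.9 RPPM to between 1.27 and 7.71 RPPM (-3.77). The groups were far apart at these regions. They were not so at a promoter region of Serinc3, with 71.7 and 31.1 RPPM in nB and 0, 0.636, 25.4 and 5.59 RPPM in GCB (log2 fold change -3.56, SE 0.67), which was not called without the deeper nB library (limma adjusted p = 0.0103) or with DESeq2 (adjusted p = 0.0252).

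Large promoter gains were found at genes with other known roles. The promoter of Cpe, which encodes the prohormone processing enzyme carboxypeptidase E, had no read in either nB library and 28.6, 24.8, 29.8 and 21.7 RPPM in GCB, at least 97.6-fold higher when 3 reads over both nB libraries are taken as the floor. The Tspyl5 promoter rose from 0.165 and 0.590 RPPM to between 35.6 and 43.0 RPPM (log2 fold change 4.89) and that of Zdhhc2, a palmitoyltransferase, from 0.987 and 1.18 RPPM to between 43.3 and 60.8 RPPM (4.74). Promoter regions of Gucd1 and Xdh, the latter encoding xanthine dehydrogenase, showed the largest autosomal promoter losses in which the groups did not overlap, with log2 fold changes of -3.63 and -3.61.

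Calls were also counted by gene symbol, with 18.4% of all regions gained and 7.84% lost. Of 14775 symbols, 5724 had a gained region, 2508 a lost region and 883 both. Among 646 symbols with at least 5 called regions, 364 had calls in 1 direction, 285 of them gains and 79 losses. Etv6, an ETS family repressor, gained at 25 of 35 regions and lost none, and Hivep3 and Fndc3a gained at 17 of 36 and 16 of 32 with no loss. Arfip1 gained at 19 of 59 and lost 6, and Fut8, a fucosyltransferase, gained at 18 of 45 and lost 4. Lpp lost 22 of 53 regions, Hdac9, a histone deacetylase, 15 of 33, and Chrm3, a muscarinic receptor, 13 of 20, including 11 consecutive regions over 153 kb. A symbol is that of the transcript the table gives, and for 28.1% of regions the nearest start in GENCODE belongs to another symbol.

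Sequence features that were not used to choose regions differed between gains and losses. Cores were counted on both strands in the 65891 regions on named chromosomes, and each share was compared with that of all regions of the same width. An octamer core (Oct-2) was present in 10.6% of gained regions, against 5.80% of regions of that width, a ratio of 1.82, and in 5.02% of lost regions, a ratio of 0.774. A PU.1 core was present in 35.0% of gained regions (ratio 0.837) and 57.3% of lost regions (ratio 1.23). The composite PU.1-IRF core GAAGTGAAA, which contains part of the PU.1 core, had ratios of 0.852 and 1.40, and RUNX (TGTGGTT) and NF-kB (GGGANTTCC) cores had ratios of 0.940 and 0.907 in gains and 1.26 and 1.24 in losses. Without promoters, the octamer ratios were 1.68 and 0.755 and the PU.1 ratios 0.833 and 1.28.

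More octamer cores went with more frequent gains, and more PU.1 cores with more frequent losses and fewer gains. Among regions with 0, 1 and 2 or more octamer cores, 17.4%, 32.2% and 44.4% gained accessibility, with median log2 fold changes of 0.10, 0.45 and 0.78. The last class held 252 regions. For PU.1, 5.92%, 9.56% and 12.2% of regions lost accessibility and 21.0%, 16.4% and 11.5% gained it, with medians of 0.29, -0.00 and -0.23. Regions with more cores are also wider, and these classes, unlike the shares above, were not compared at equal width. Named regions did not all follow this division. The gained S1pr2 region held a PU.1-IRF core, and the lost Ebf1 and Xdh regions each held an octamer core. A core match is a string in the sequence and does not show that a factor was bound.

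**Figure D4:**
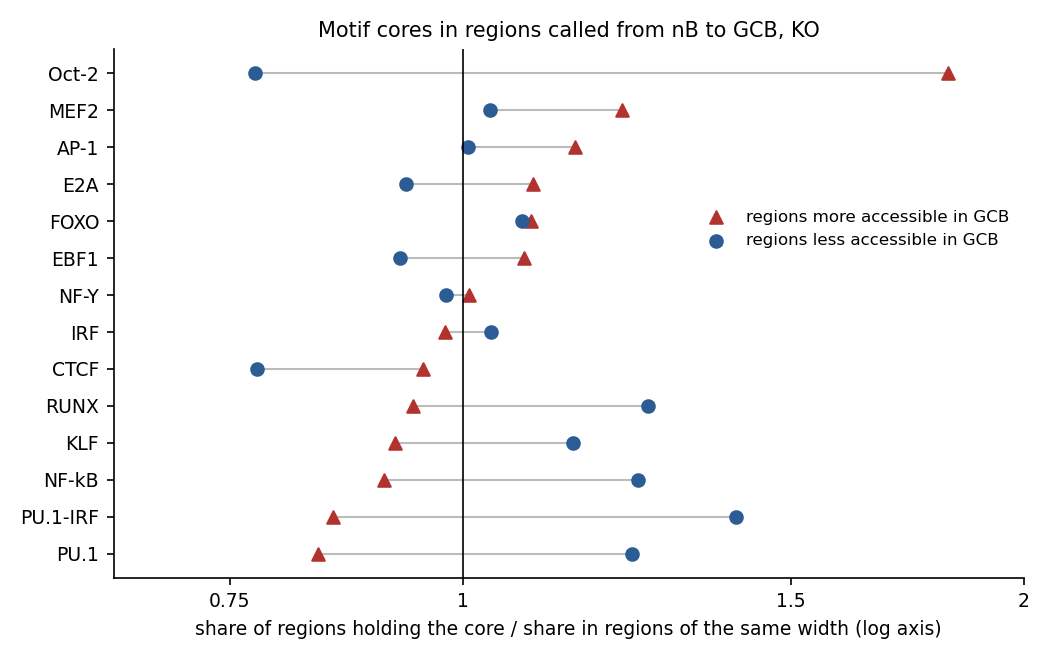
Share of gained (red triangles) and lost (blue circles) regions holding each of 14 motif cores, divided by the share in all regions of the same width (log axis, 1 means no difference). The octamer core (Oct-2) lies farthest right for gains (1.82), and PU.1 and PU.1-IRF lie left of 1 for gains and right of 1 for losses.

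The same transition was measured in Dnmt3-sufficient cells, with no library shared between the 2 contrasts. In C mice, 9427 regions rose (14.2%) and 5602 fell (8.47%). Of the regions that rose in KO, 8036 were also called in C (65.8% of the KO gains and 85.2% of the C gains), and of those that fell 3524 were called in both (67.9% and 62.9%). No region was called in opposite directions. Across the 66177 regions the log2 fold changes correlated at r = 0.902, a description in which regions are not independent. The distal Bcl6 region changed by 5.04 in C and 4.61 in KO, the S1pr2 region by 4.22 and 4.15, and the Pik3cd region by -3.15 and -3.48.

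**Figure D5:**
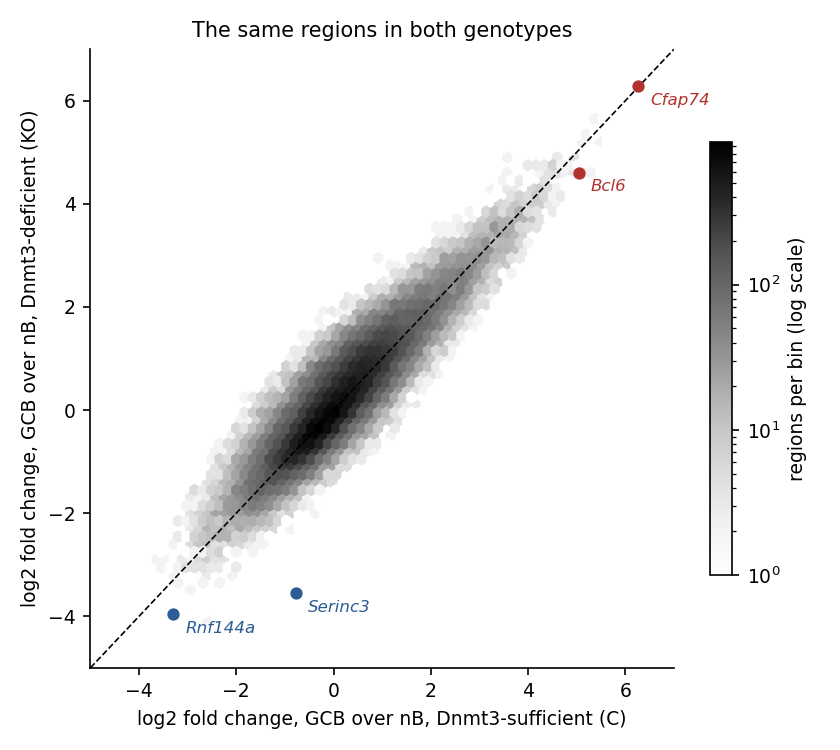
Log2 fold change from nB to GCB in Dnmt3-sufficient (x axis) and Dnmt3-deficient cells (y axis) for 66177 regions, with shade giving the number of regions per bin on a log scale. Regions lie along the diagonal (r = 0.902), and none was called for a difference between the axes.

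The difference between the genotypes was tested as an interaction. No region was called (0% of 66177, smallest limma adjusted p = 0.52), and none was called by edgeR's quasi-likelihood test or DESeq2, while edgeR's likelihood ratio test called 4. At an unadjusted limma p under 0.05, 2744 regions changed more upward in KO and 1363 more downward, 6.21% of all. This excess depended on scaling, with 2199 and 1999 regions under TMM and 2017 and 1804 under quantile normalization. It turned with GC-bin centering (1853 and 2366) and with DESeq2 (1282 and 1558). The 4169 gains called in KO and not in C had median log2 fold changes of 1.35 in KO and 0.78 in C, and 4037 of them were also higher in GCB in C. The 1664 losses called in KO alone had medians of -1.22 and -0.83. A call in one genotype and not in the other was therefore not a shown difference between them.

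The regions with the smallest interaction p were at Mthfd1l, Phf20, Spata13 and C1ra, each with an adjusted p of 0.52. With the female GCB pools left out, where each genotype has a single GCB pool, their interaction log2 fold changes were 3.58, 2.14, 2.04 and 2.16. Each pool is assumed there to vary like the other groups. The regions were chosen by p in libraries that include these, so this fit does not test them independently. The Phf20 region was at 1.48 and 1.38 RPPM in nB KO and 7.71, 4.46, 3.95 and 6.99 RPPM in GCB KO (log2 fold change 1.44), against -0.68 in C. The C1ra promoter was at 2.96 and 2.76 RPPM and at 8.81, 10.2, 6.58 and 10.5 RPPM (1.36), against -0.49 in C. At Lig4 and Cd28, whose regions rose by 2.37 and 3.16 in KO, the values in C were 0.64 and 1.86, with unadjusted interaction p-values of 0.00442 and 0.00374 and adjusted ones of 0.721 and 0.712.

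Sex moved with the comparison on the X and Y chromosomes. Of 9 Y regions 7 were called lower in GCB KO, and with the male pool M1 alone their median log2 fold change was -0.19. On the X chromosome the median was 0.18 with all pools and -0.02 with M1, against 0.12 and 0.10 on autosomes. Firre, an X-linked noncoding RNA gene with a role on the inactive X, had 15 of 22 regions called higher. Its summed accessibility was 19.9 and 19.7 RPPM in nB, 272, 264 and 261 RPPM in the female pools and 33.6 RPPM in M1, so the female pools stood apart and M1 lay near nB. With M1 alone 3 of the 22 regions were called.

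Markers of other cells that a germinal center sort could hold were checked. The study's flow cytometry panels used antibodies to CD11b, CD11c, CD90.2 and Ly6-G, antigens of myeloid cells and T cells, to set aside autofluorescent cells. Regions at 7 of 11 T cell genes summed to 432 and 415 RPPM in nB and 385, 371, 417 and 375 RPPM in GCB, of which Cd2, the most accessible, held 258 RPPM in nB and 267 RPPM in GCB. Of their 29 regions 5 rose (17.2%, against 18.4% of all regions) and 6 fell (20.7%, against 7.84%). No Cd3e region was called (0 of 3), Cd2 had 2 gains and 3 losses and Lck 1 of each, the Cd5 region fell (log2 fold change -1.57), and the Cd3d region fell (log2 fold change -2.09), while both Cd4 regions rose from at most 1.18 RPPM to between 1.75 and 12.1 RPPM. At 5 of 6 follicular helper T cell genes, the sum rose from 191 and 215 RPPM to 373, 370, 392 and 371 RPPM, with 14 of 35 regions gained (40.0%, against 18.4% of all regions) and none lost. Of these 10 were at Tox, 3 at Il21 and 1 at Icos, while no region of Pdcd1 (0 of 4) or Cd40lg (0 of 1) was called. In C 11 of these 35 regions gained and none lost, and the difference between the genotypes was not tested for the list.

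Myeloid genes summed to 316 and 304 RPPM in nB and to 258, 250, 264 and 255 RPPM in GCB, with 3 of 29 regions gained (10.3%, against 18.4% of all regions) and 5 lost (17.2%, against 7.84%). NK cell genes summed to 262 and 261 RPPM and to 261, 330, 288 and 334 RPPM, and erythroid genes to 81.6 and 67.5 RPPM and to 50.7, 76.4, 66.2 and 81.8 RPPM. Stromal and follicular dendritic cell genes summed to 32.1 and 27.9 RPPM and to 65, 62.4, 55.2 and 59.4 RPPM, with 4 of 9 regions gained (44.4%, against 18.4% of all regions) and none lost, and with 1 gain under quantile normalization. In C 1 of the 9 was called, a gain, and whether the genotypes differ at these genes was not tested as a list. None of the marker genes with regions was at 0 in all libraries of a group. ATAC-seq measures accessibility and not transcripts, fewer cells of a type and less accessibility per cell cannot be told apart, and the part of other cells in the results was not tested.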

How the data were processed

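Reads in accessible regions were analysed for 16 ATAC-seq libraries of sorted mouse B cells, whose labels name cell type and genotype. Alignment to mm9 used Bowtie, and the authors combined MACS2 peaks (q at most 0.01) of the single samples and removed 1 library whose share of reads in peaks lay outside their limits. The processing notes name Bowtie 1.1.1, MACS2 2.1.0.20140616, Picard 1.127 and edgeR 3.12.1. The deposited values are RPM, counted over the reads in all regions of a library and called RPPM here. The table also holds the authors' log2 fold changes, p-values and FDR for each comparison, which were not used. Mitochondrial reads are part of the total that RPPM divides by, and a larger share of them lowers all other values.

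Each RPPM value was a whole multiple of that of 1 read (tolerance 0.01 reads) in 100% of values of every library, and these whole reads were used for count tests. Floors of 3 reads cover counting error only, and how PCR copies were handled was not examined here. Replicate libraries differed by more than sampling noise (chi-square per degree of freedom at least 1.18). The samples of a group are mice or pools, and p-values measure the spread between them.

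Values of log2(RPPM + 1) were tested with limma 3.58.1 (R 4.3.3). All libraries entered 1 fit of 6 group means, variances were moderated with a mean trend, and p-values were adjusted by Benjamini-Hochberg across all 66177 regions. Calls needed adjusted p ≤ 0.01 and a change of at least 1 on the log2 scale. Counted on recovered reads, edgeR 4.0.16 (quasi-likelihood) called 12789 gains and 6733 losses and DESeq2 1.42.0 called 11078 and 6213. The script was tested on simulated data. Other alternatives were pseudocounts of 0.1 and 5 RPPM, a mean of at least 1 RPPM, TMM, quantile and GC-bin scaling and a limit of 0.05. Further ones were no trend, a fit of the compared groups, female GCB pools left out, sex chromosomes left out, thinned reads, promoters only, a replicate block and each library left out. The fit without female GCB pools kept the BMPC libraries, which were all female. Symbols and annotation are those of the table, and starts are from GENCODE for the same build. Sequence was read for 65891 regions, with 286 on unplaced or mitochondrial sequence left out. Python 3.11.15, pandas 2.3.3, numpy 2.4.6 and matplotlib 3.10.9 were used.

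Named regions were, by rule, 8 genes of the design and the cell types at their strongest promoter, the 4 genes of each list with the largest called change without overlap of groups, the 8 largest autosomal gains and losses and 5 promoters in each direction without overlap, the 8 symbols with the most calls in each direction, and the 4 regions with the smallest interaction p. Further regions of these genes, Firre, Lig4 and Cd28 beside C, and the markers of other cells were described after their values were seen. The rule, the gene lists and the motifs were chosen with earlier results of these data known. Some genes and 1 sequence are not reported here, although gene list counts include all listed genes.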

Additional observations from a re-analysis of the deposited data

Results flagged for a closer look

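Among 79 named regions, 9 had a GCB KO pool whose gap to the nearest of the other 3 passed Dixon's critical value for 4 samples, as a share of the range of the group. Chance flags about 1 in 20 such groups. The 3 on the Y chromosome separate the male pool from the female pools: M1 was at 30.1 RPPM at Eif2s3y, 30.8 RPPM at Ddx3y and 32.2 RPPM at Uty, with the others at 0. Pool F2 stood apart at the Bcl6 promoter (21.6 RPPM, others 14.0 to 14.3 RPPM) and at an intronic Fyn region (7.0 RPPM, others 15.4 to 16.2 RPPM). It also stood apart at an intergenic region 421088 bp from the Mef2c start (3.82 RPPM, others 0). Pool F3 was high at the intronic Cd86 region (69.3 RPPM, others 54.7 to 56.2 RPPM), M1 at an intronic E2f3 region (11.9 RPPM, others 6.37 to 6.61 RPPM), and F1 was low at the region without a symbol at chr4:154828446-154829116 (60.6 RPPM, others 67.1 to 68.1 RPPM). At the 6 autosomal regions every pool lay on the same side of both nB libraries, and each was called. Except at the Bcl6 promoter, this follows from how the regions were chosen.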

How the results depend on the processing

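Of 75 named regions tested from nB to GCB KO, 65 kept their side of the threshold under every alternative run, and none changed direction. Regions of the lists and of the largest changes were chosen as called without overlap of groups, so these counts do not stand for all regions. Gains in KO numbered 4643 with a pseudocount of 5 RPPM, 7679 with quantile normalization and 6468 with reads thinned to the shallowest library, against 12205. Losses numbered 2366, 7477 and 2762 in the same settings, against 5188, and 7471 with GC-bin centering. A fit of the 14332 promoter regions alone gave 1505 gains and 1042 losses, against 1489 and 1035 promoters called among all regions. Leaving out 1 library at a time gave 8135 to 12417 gains and 3350 to 5568 losses in KO, the lowest of both without the deeper nB library, and 6775 to 8392 gains and 3868 to 5096 losses in C. In C the pseudocount of 5 RPPM gave 4324 gains and 2488 losses, and thinning 4844 and 2759. For the difference between genotypes, the 0 calls became 132 and 97 with male libraries only, where 1 GCB pool per genotype is assumed to vary like the other groups, 3 and 1 with edgeR's likelihood ratio test, and 1 and 0 without the deepest nB C library. With the replicate block for GCB pools F2 and M1, which share only a name across genotypes, 0 regions were called in either direction. Slamf6 was not called without the shallower nB library (adjusted p = 0.0114), nor the 3 Y promoters without either nB library. Depth limits low GCB values, since 3 reads in pool F1 equal 3.30 RPPM.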

Other observations

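Near the class II genes of the major histocompatibility complex, which present antigen to T cells, more regions fell than rose from nB to GCB KO. The table gives 52 regions over chr17:34371770-34724832 the symbol of Notch4, and 31 of them lie nearest to the starts of H2-Ob, H2-Ab1, H2-Aa, H2-Eb1 or H2-Eb2. These 31 were chosen after their values were seen. Of them 13 fell and 2 rose, where 7.84% and 18.4% of all regions did, with a median log2 fold change of -0.89, and 14, 11 and 19 fell under TMM, quantile and GC-bin scaling. The region over the H2-Aa start (chr17:34424022-34425226) was at 90.1 and 88.0 RPPM in nB and at 38.5, 35.6, 30.3 and 30.1 RPPM in GCB (log2 fold change -1.39, SE 0.13), and that over the H2-Eb1 start at 59.1 and 68.3 RPPM and at 20.9, 14.6, 18.0 and 31.5 RPPM (-1.59, SE 0.19). The groups did not overlap at either start. In C the median of the 31 regions was -0.80, and 11 of them fell.

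The longest run of consecutive gained regions held 41 regions at chr2:174935507-177660968, a cluster of near-identical predicted genes such as Gm14391 and Gm14420, with log2 fold changes from 1.15 to 2.39 in KO and from 0.78 to 2.58 in C. Reads there can fall on more than 1 copy, so single regions are uncertain. Gains were also frequent on random or unplaced sequence, with 130 of 284 regions (45.8%, against 18.4% of all regions) and 8 losses, where 18 of 19 regions with the symbol Mucl1 rose. Chromosome 19 had 11.3% of its regions gained and 11.6% lost, and chromosome 12 had 22.3% and 7.83%, against 18.4% and 7.84% of all regions.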
